A study of Mus musculus with 14 samples.

Results

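The response described here is that of unprimed mouse macrophages 2 h after LPS, a component of the outer membrane of Gram-negative bacteria. Its fold changes rest on 3 of the 14 libraries of the series, chosen by their labels alone. In 2 libraries the cells had received PBS and then LPS (replicates 1 and 2), and in 1 library they had received PBS and then PBS again. Unprimed means that the earlier stimulus, which in other groups was the double-stranded RNA mimic Poly I:C, was PBS. All 3 libraries came from bone-marrow-derived macrophages, grown from male C57Bl6/J mice of 6 to 12 weeks in medium conditioned by L929 cells, the source of the growth factor CSF-1, and no genetic change is named. The PBS step lasted 24 h, after which the medium was removed, the cells were washed and the second stimulus was added for 2 h. The series also held the same pair of groups at 6 h (1 PBS-then-PBS and 2 PBS-then-LPS libraries). They were used here to gauge the spread between controls and to test how the response differed between the times. All 14 libraries of the series entered the fit that set the standard errors and p-values. The dose of the second LPS stimulus was not given in the sources used here, and no label ties a library to an animal or a culture, so p-values reflect the scatter among these libraries, whether technical or biological.

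LPS is bound by CD14 and by the TLR4 and MD-2 receptor complex on the macrophage surface. Signalling through the adaptor MyD88 releases NF-kB from its IkB inhibitors and activates MAP kinases, while signalling through the adaptor TRIF leads to interferon beta, which acts back on the cells through its receptor and switches on interferon-stimulated genes. Genes of the early response include those of cytokines and chemokines and also those of the inhibitors that later shut the pathway down.

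Levels are FPKM, fragment counts scaled by transcript length and library size, as the authors deposited them. Log2 fold changes are differences of log2(FPKM + 1), given with the standard error. On this scale the change of a gene with few reads is understated. Genes were called at an adjusted p under 0.05 in limma, fitted to all 11977 tested entries. Absolute depth is unknown, and only the number of libraries and the spread between them limit the precision given here. The value of 1 fragment, read from the steps between low values, was 1.14 and 1.17 times that of the control in the LPS libraries, so the 3 libraries were close in the combination of depth and scaling that sets this step. Coordinates are GRCm38 and give the locus the deposited table lists, which for 50 of the 141 named genes overlaps another tested entry.

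The libraries carried macrophage markers at high levels. Of 15 identity markers 14 had an entry of their own and none was at 0, with summed levels of 18689 FPKM in the control and 26773 and 20810 FPKM in LPS replicates 1 and 2. Lyz2 stood at 11279 FPKM in the control, Cd68 at 1412 FPKM and Emr1, which encodes F4/80, at 317 FPKM. Of the markers of other cells, those of neutrophils were close to absent. In the control and in LPS replicates 1 and 2, 10, 9 and 8 of the 13 were at 0, with summed levels of 2.44, 3.25 and 3.48 FPKM. T and NK cell markers summed to 4.68, 2.27 and 2.75 FPKM, B cell markers to 7.40, 11.9 and 11 FPKM, stromal and endothelial markers to 50.2, 40.7 and 39.2 FPKM, and mast cell and basophil markers to 0.339, 0.174 and 0.344 FPKM. Of the 14 stromal and endothelial markers with an entry of their own, 1, 1 and 0 were at 0, so most were detected. Bst2, which macrophages also express and which interferon induces, made up 503 of the 504.6 FPKM of the dendritic cell list in the control and 912 of 917 and 557 of 561 FPKM with LPS. The dendritic cell genes Xcr1 and Zbtb46 were called higher, though neither passed 2 FPKM in any of the 3 libraries, and their part in the results was not tested. Pf4 made up 622 of the 623 FPKM of the erythroid and megakaryocyte list in the control and 1185 of 1186 and 876 of 878 FPKM with LPS.

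PBS-then-LPS replicate 1 stood apart from the other libraries by transcript length. Among 6662 protein-coding genes with a mean of at least 5 FPKM, the difference between replicates 1 and 2 had a median of 0.42 on the log2 scale in the quartile with the shortest transcripts and of -0.29 in the quartile with the longest, with a Spearman correlation with length of -0.595 across genes, which are not independent replicates. In the other 5 pairs of replicates of the series that correlation lay between -0.0417 and 0.302. Against the control, the shortest quartile had a median of 0.52 in replicate 1 and of 0.10 in replicate 2, and the longest quartile -0.20 and 0.09. The replicates correlated at r = 0.974 across all tested genes, lay over 2-fold apart in 306 of them, and both controls lay over 2-fold apart in 359, of which 266 were higher in the 2 h control. Results are therefore given with and without replicate 1, and with the 6 h control library beside the 2 h one. The cause of the difference in length was not tested.

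**Figure D1:**
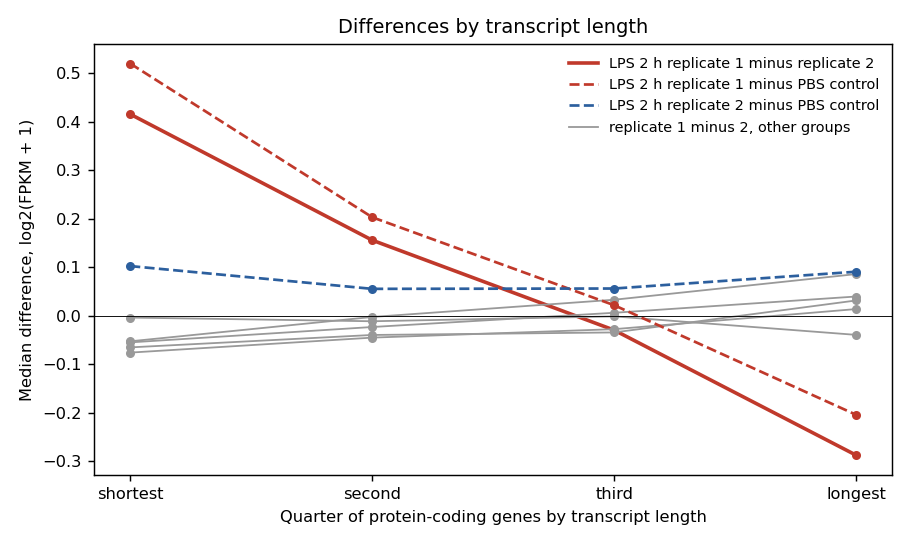
Median difference in log2(FPKM + 1) in each length quartile of 6662 protein-coding genes. The solid red line is PBS-then-LPS 2 h replicate 1 minus replicate 2, the dashed lines are each of these replicates minus the PBS-then-PBS 2 h library, and the grey lines are replicate pairs of the other groups; the red lines run from 0.42 and 0.52 at the left to -0.29 and -0.20 at the right.

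LPS changed the level of many genes within 2 h, and the increases were both more frequent and larger than the decreases. Of 11977 tested entries, 1134 were called higher (9.47%) and 765 lower (6.39%), of which 653 and 338 changed by at least 2-fold. The median over all tested entries was 0.040. Increases of at least 4-fold were called for 236 genes and of at least 16-fold for 53, against 38 and 1 for decreases. Among protein-coding entries with levels adjusted for transcript length the counts were 1027 higher and 1016 lower, so there the increases were hardly more frequent. With replicate 2 as the only LPS library the counts were 1132 (9.45%) and 661 (5.52%), and 953 of the higher and 549 of the lower calls were called in both fits. With replicate 1 as the only LPS library they were 2296 and 1407. Of the genes called by at least 2-fold, 626 of 653 higher and 302 of 338 lower were also called without replicate 1, 621 and 225 were also called against the 6 h control, and 601 and 209 in both fits. Both LPS libraries lay above both controls in 649 of the 653 and below both in 310 of the 338, beside 31.0% and 24.2% of all tested entries.

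The genes that rose spanned a wide range of levels in the control. Of the 653 genes, 148 stood under 1 FPKM in the control, 14 of them listed at 0, while 243 stood from 1 to under 10, 232 from 10 to under 100 and 30 at 100 or more. Over all 11977 tested entries the counts in these ranges were 1641, 5107, 4588 and 641. Entries under 1 FPKM in the control could enter the test only through other libraries at 1 FPKM or more. The 653 genes had a median of 5.92 FPKM in the control and 32.5 FPKM with LPS, beside 7.82 and 7.93 FPKM over all tested entries. The 338 genes that fell by at least 2-fold had a median of 11.4 FPKM in the control and 3.84 FPKM with LPS. Together the 653 genes took 3.48% of the FPKM of named entries in the control and 12.8% and 13% in the LPS libraries. As these are bulk samples, a lower level in every cell and a loss of the cells that express a gene cannot be told apart.

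**Figure D2:**
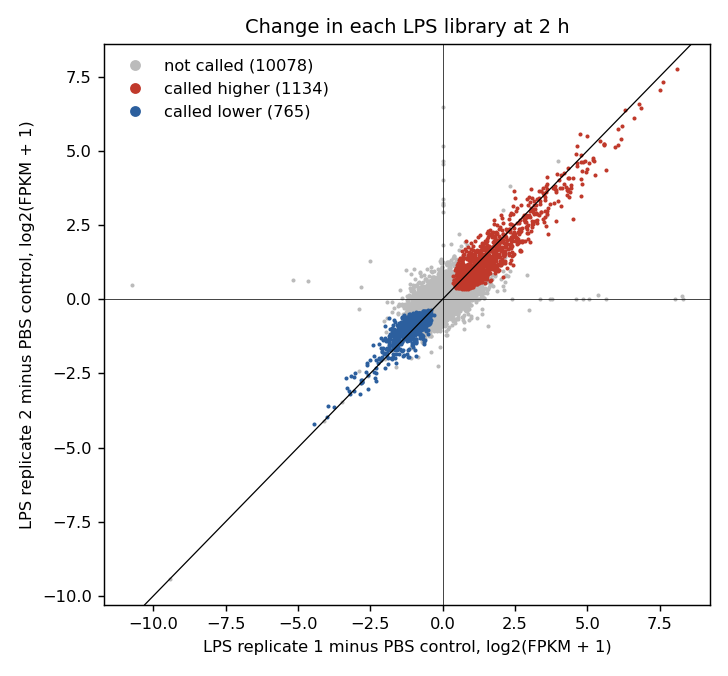
Change of each of 11977 tested entries from the PBS-then-PBS 2 h library in PBS-then-LPS 2 h replicate 1 (x axis) and replicate 2 (y axis), in log2(FPKM + 1). Red points were called higher (1134), blue points lower (765) and grey points not called, the diagonal marks equal change, and the called genes lie along it in both directions.

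The 10 largest increases by the naming rule were genes of secreted signals, of feedback and of antiviral defence. That rule took called genes with both LPS libraries on 1 side of both controls, so for the genes it chose a lack of overlap with the controls is a description and adds no support. Of the 134 named genes that were called, 14 had an effect over 1.5 times smaller against the 6 h control and 39 one over 1.5 times larger. Cxcl10, a chemokine that attracts T cells (chromosome 5, 92331827 to 92414628), stood at 8.37 FPKM in the control and at 2585 and 2005 FPKM in the LPS libraries, 274 times as high on average (log2 fold change 7.93 ± 0.25, limma adjusted p = 1.04e-07). Socs3, an inhibitor of cytokine receptor signalling (chromosome 11, 117966079 to 117970047), went from 2.27 to 645 and 528 FPKM (7.48 ± 0.64). Il1b, the precursor of interleukin 1 beta (chromosome 2, 129364562 to 129376162), went from 2.71 to 679 and 489.6 FPKM (7.28 ± 0.43). In each of these genes the LPS libraries lay far above both controls, and the 6 h control held 6.06, 0.691 and 0.330 FPKM. Tnfsf9, which encodes the ligand of the costimulatory receptor 4-1BB (chromosome 17, 57041775 to 57107757), went from 3.49 to 499 and 433 FPKM (6.70 ± 1.02), with 10.7 FPKM in the 6 h control (5.31 against it). Irg1, now named Acod1, makes the metabolite itaconate (chromosome 14, 103042225 to 103059872), and it went from 3.86 to 564 and 424 FPKM (6.66 ± 0.21). Il1a, the gene of interleukin 1 alpha (chromosome 2, 129297370 to 129309972), went from 0.716 to 134 and 140.01 FPKM (6.33 ± 0.68).

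The antiviral gene Ifit1 (chromosome 19, 34583478 to 34658018) went from 4.35 to 397 and 303 FPKM (6.02 ± 0.20). Dusp2, a phosphatase of MAP kinases (chromosome 2, 127336109 to 127338381), went from 2.25 to 215 and 172 FPKM (5.89 ± 0.38). Rnd1, a small GTPase (chromosome 15, 98663260 to 98677461), went from 0.293 to 91.1 and 53.7 FPKM (5.78 ± 0.32). For all 10 genes the call held in each of 12 other settings, among them the fits without replicate 1 and with the 6 h control. The chemokine gene Ccl5 (chromosome 11, 83525771 to 83536450) went from 26.3 to 1823 and 996 FPKM (5.63 ± 0.31), with the largest ratio between the replicates among the 10. Together these genes took 0.0131% of named FPKM in the control and 1.24% and 1.11% in the LPS libraries. The listed loci of Cxcl10, Tnfsf9, Ifit1, Il1a and Il1b overlap other tested entries (Cxcl11 and Art3 for Cxcl10), so reads of neighbours could be shared there.

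**Figure D3:**
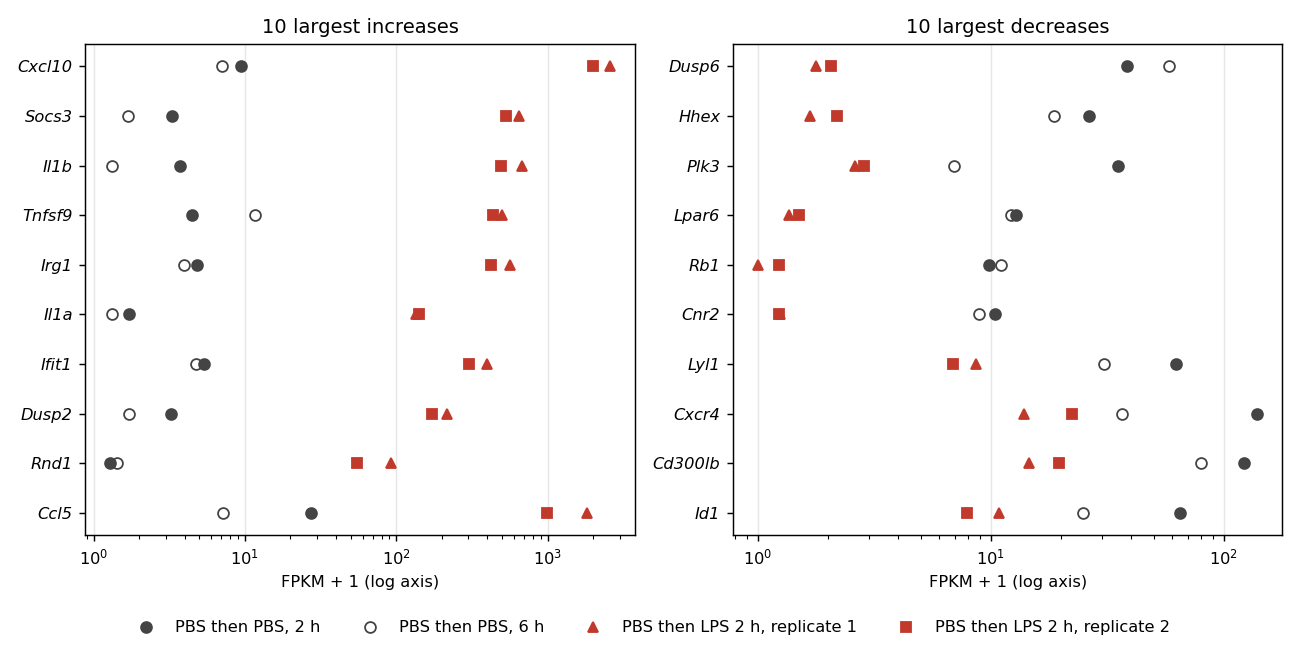
Levels of the 10 largest increases (left) and the 10 largest decreases (right) by the naming rule, as FPKM + 1 on a log axis. Filled circles are the PBS-then-PBS 2 h library, open circles the PBS-then-PBS 6 h library, and red triangles and squares PBS-then-LPS 2 h replicates 1 and 2; the red symbols lie to the right of both circles on the left panel and to the left of both on the right panel.

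Sequences just upstream of the start site are given for 5 of the genes that rose, because they differ in the motifs they hold and, as shown further on, in whether their response was larger at 2 h or at 6 h. The windows are RefSeq promoters of GRCm38.p6, 250 bases up to the base before the start site, read 5′ to 3′ on the strand of the gene, and matches to the motifs searched are in capitals. The motifs were searched on both strands in the 300 bases from 250 before to 50 after the start. They were the kappaB consensus of NF-kB, the interferon-stimulated response element (ISRE, bound by interferon regulatory factors), written as GAAA and GAAA with any 2 bases between, the AP-1 motif TGANTCA, the cyclic AMP response element TGACGTCA and the serum response element.
Cxcl10 (chr5:92348890-92349139, minus strand): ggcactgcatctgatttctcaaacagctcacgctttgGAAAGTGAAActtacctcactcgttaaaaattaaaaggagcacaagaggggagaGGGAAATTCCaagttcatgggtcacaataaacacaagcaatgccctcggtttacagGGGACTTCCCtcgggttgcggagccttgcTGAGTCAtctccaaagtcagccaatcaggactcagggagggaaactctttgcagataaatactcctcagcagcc
Ifit1 (chr19:34640639-34640888, plus strand): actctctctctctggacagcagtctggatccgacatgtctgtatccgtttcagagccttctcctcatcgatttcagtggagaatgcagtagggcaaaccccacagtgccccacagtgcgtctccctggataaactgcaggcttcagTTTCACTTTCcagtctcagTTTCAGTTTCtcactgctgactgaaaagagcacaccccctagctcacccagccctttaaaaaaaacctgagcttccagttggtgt
Isg15 (chr4:156200819-156201068, minus strand): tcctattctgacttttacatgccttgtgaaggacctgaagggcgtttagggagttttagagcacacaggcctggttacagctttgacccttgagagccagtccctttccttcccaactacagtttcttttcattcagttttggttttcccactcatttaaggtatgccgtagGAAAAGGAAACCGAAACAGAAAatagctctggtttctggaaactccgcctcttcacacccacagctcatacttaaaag
Cxcl1 (chr5:90890995-90891244, plus strand): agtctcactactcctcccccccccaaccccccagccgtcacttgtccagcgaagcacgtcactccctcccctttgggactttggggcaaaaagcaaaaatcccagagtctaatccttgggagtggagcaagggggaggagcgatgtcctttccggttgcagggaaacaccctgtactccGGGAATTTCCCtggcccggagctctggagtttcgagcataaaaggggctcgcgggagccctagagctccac
Nfkbia (chr12:55492648-55492897, minus strand): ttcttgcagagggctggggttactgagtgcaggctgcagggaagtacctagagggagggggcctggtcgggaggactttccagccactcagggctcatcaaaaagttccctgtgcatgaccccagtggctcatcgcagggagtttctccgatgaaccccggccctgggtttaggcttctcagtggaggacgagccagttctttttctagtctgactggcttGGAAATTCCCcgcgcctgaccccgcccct
The Cxcl10 window held an ISRE match (GAAAGTGAAA), 2 kappaB matches (GGGAAATTCC and GGGACTTCCC) and an AP-1 match (TGAGTCA), in this order towards the start site. In the Ifit1 window there were 2 ISRE matches on the opposite strand (TTTCACTTTC and TTTCAGTTTC). The Isg15 window held 3 ISRE matches that overlap, while Cxcl1 held 2 kappaB matches that overlap by all but 1 base at each end. Nfkbia held 1 kappaB match, which ends 20 bases before the start site. These are matches of letters and not binding sites shown by these data.

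Promoters of the genes that rose held kappaB and ISRE matches more often than promoters of all tested genes. Among the 548 protein-coding genes called higher by at least 2-fold, 443 had a promoter in the table, of which 13.1% held a kappaB match and 7.45% an ISRE match. The shares were 5.03% and 3.13% over the 7855 promoters of tested protein-coding genes, 4.35% and 3.49% over all 27025 promoters of the table, and 5.41% and 0.901% over the 222 promoters of genes called lower by at least 2-fold. Of the 35 promoters of genes that rose at least 16-fold, 31.4% held a kappaB match and 22.9% an ISRE match. AP-1 matches stood in 9.71% of the promoters of genes that rose by at least 2-fold and 5.05% of those of tested genes, whereas the cyclic AMP response element stood in 1.81% and 3.41%. The shares are a description, with no test.

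Cytokine genes were among those that moved most. In this and the following lists, counts of called members stand beside 9.47% higher and 6.39% lower over all tested entries. Of 25 listed cytokines 23 were tested, and 17 were called higher and none lower, with a median log2 fold change of 2.22. Tnf, the gene of tumour necrosis factor (chromosome 17, 35199381 to 35202007), was already at 46.6 FPKM in the control and reached 694 and 624 FPKM (3.79 ± 0.58, limma adjusted p = 0.00150). Il12b, a chain shared by several interleukins that drive T cell responses, stood at 0.0625 FPKM in the control and at 45.6 and 41.9 FPKM with LPS (5.39 ± 0.31). Il6, an inducer of the acute-phase response, went from 0.268 to 33.6 and 19.8 FPKM (4.40 ± 0.57). In these genes the controls and the LPS libraries did not overlap. Il10, which encodes an anti-inflammatory cytokine, rose alongside, from 0.867 to 50.8 and 45.5 FPKM (4.72 ± 0.38). The replicates of Il27, a regulator of T cells, lay further apart, at 71.8 and 32.96 FPKM from 0.877 in the control. Colony-stimulating factor genes Csf1 (log2 fold change 1.97) and Csf2 (2.58) were called higher, and Il1rn, the antagonist of the interleukin 1 receptor, rose by 2.57. Not called were Il18 (0.26), Tgfb1 (0.30), Osm (0.15), Tnfsf10 (0.48), Il23a (0.38) and Inhba (-0.54). Without replicate 1 the count was 16, with the call of Csf3 lost, and against the 6 h control it was 20.

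Chemokine genes rose with few exceptions, with 16 of 18 tested members of 22 listed called higher and none lower, both with all LPS libraries and without replicate 1. Against the 6 h control 17 were higher and 1 lower. The median was 3.92. Cxcl1, a chemokine that attracts neutrophils (chromosome 5, 90891241 to 90893115), went from 0.251 to 33.8 and 35.7 FPKM (4.84 ± 0.41). Its relative Cxcl3 went from 0.176 to 36.02 and 23.5 FPKM (4.68 ± 0.44). Ccl3, which attracts monocytes and T cells, went from 24.8 to 865 and 619 FPKM (4.83 ± 0.58, or 3.32 against the 6 h control at 72.1 FPKM). A merged entry of Ccl3 with its neighbour Ccl4 went from 32.5 to 3318 and 2325 FPKM, so the split between these genes is uncertain. The monocyte attractant genes Ccl2 and Ccl7 rose by 3.91 and 4.04. Not called were Cxcl14 (-0.34) and Pf4 (0.71). Of 10 tested chemotactic receptors 2 were higher and 1 lower (4 lower against the 6 h control and 3 without replicate 2). These shares of 20% and 10% stand beside 9.47% and 6.39% of all tested entries. The merged entry of Fpr2 and Fpr3 was called higher (1.43), and that of C5ar2 with Gm26473 was not called (0.066). Ccrl2, an atypical receptor that presents chemerin, rose from 3.48 to 81.6 and 84.4 FPKM (4.23 ± 0.20). Fpr1, a receptor of bacterial peptides, rose by 0.88, a call lost against the 6 h control (limma adjusted p = 0.327), and Cxcr4, described further on, fell.

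The gene of interferon beta and some genes of interferon signalling were called higher at 2 h. Ifnb1 (chromosome 4, 88522025 to 88522794) stood at 0.0812 FPKM in the control, was listed at 0 in the 6 h control and reached 50.8 and 38.6 FPKM with LPS (5.39 ± 0.45, limma adjusted p = 2.38e-05). Irf1, a transcription factor of interferon and inflammatory genes, went from 9.05 to 372 and 271 FPKM (4.99 ± 0.28). Irf7, an interferon regulatory factor that amplifies the response, went from 26.5 to 120.5 and 62.6 FPKM (1.68 ± 0.31). The receptor chain Ifnar1 rose by 0.73. The signalling genes Stat2 (0.70), Stat3 (-0.07), Jak1 (0.35), Tyk2 (0.18) and Irf3 (0.18) were not called. Together, 4 of 10 tested members of this list were higher, 5 without replicate 1, 7 without replicate 2 and 8 against the 6 h control.

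Most interferon-stimulated genes were already higher at 2 h. Of 38 listed genes 31 were tested, and 25 were called higher and none lower, both with and without replicate 1. The median was 1.43, with 1.91 in replicate 1 and 0.94 in replicate 2. Rsad2, which encodes the antiviral protein viperin, went from 10.5 to 287 and 257 FPKM (4.57 ± 0.19). Isg15, a ubiquitin-like modifier, went from 28.9 to 629.9 and 364 FPKM (4.0 ± 0.28). Oasl1, an antiviral regulator, went from 1.99 to 63.97 and 42.3 FPKM (4.15 ± 0.22). All 3 were lower in replicate 2 than in replicate 1 and far above the control in both. Ifi205, of the PYHIN family, went from 3.05 to 116 and 99.3 FPKM (4.74 ± 0.18). Oas2 (0.34), Oas3 (0.17), Ifi44 (0.42), Dhx58 (0.47), Bst2 (0.50) and Nmi (0.67) were not called. ISRE matches stood in 10 of the 23 promoters found for tested interferon-stimulated genes (43.5%), beside 3.13% of those of tested protein-coding genes.

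Among interferon-inducible GTPases, which attack vacuoles that hold pathogens, 5 of 6 tested members were higher (83.3%, beside 9.47% of all tested entries). Gbp5 went from 1.07 to 98.7 and 76.9 FPKM (5.41 ± 0.19). Gbp2 went from 4.50 to 54.3 and 38.3 FPKM (3.08 ± 0.21). Guanylate-binding protein genes lie in clusters of close copies, and 7 of the 13 listed members stood in merged entries, so their values are uncertain. The merged entry of Gbp4, Gbp6, Gbp8, Gbp9 and Gbp11 was not called, at 5.11 FPKM in the control and 5.38 and 5.93 FPKM with LPS (0.12). Those of Igtp with Irgm2 and of Iigp1 with BC023105 rose by 2.81 and 1.59.

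All 9 tested NF-kB subunit and IkB genes were called higher (median 2.51), and all 9 were also called without replicate 1, without replicate 2 and against the 6 h control. Nfkbia, which encodes IkB alpha, the inhibitor that is degraded and then made anew (chromosome 12, 55489411 to 55492647), went from 52.4 to 1086 and 912 FPKM (4.22 ± 0.52, limma adjusted p = 3.53e-04). Nfkbiz, an atypical IkB that acts in the nucleus, went from 3.45 to 110.4 and 157 FPKM (4.90 ± 0.39). Nfkbib, a close relative of Nfkbia, reached 210.4 and 140.1 FPKM from 21.3 (2.95 ± 0.21). In each of these genes both LPS libraries lay above both controls. Bcl3, another nuclear IkB, went from 16.2 to 146 and 91.05 FPKM (2.76 ± 0.28). Of the subunits, Nfkb2 rose by 2.51, Relb by 2.08, Nfkb1 by 2.01 and Rela, the chief activating subunit, by 0.96. Rel and Nfkbie share entries with other genes, and these entries rose by 2.00 and 2.26.

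Inhibitors of signalling moved in both directions. Of 31 tested feedback inhibitors 20 were called higher and 4 lower (19 and 4 without replicate 1), with a median of 1.38. Tnfaip3, a ubiquitin-editing enzyme that limits NF-kB, went from 20.7 to 266 and 321 FPKM (3.76 ± 0.51, limma adjusted p = 6.90e-04). Socs1, an inhibitor of interferon signalling, went from 0.658 to 82.1 and 32.7 FPKM (5.00 ± 0.50). Cish, an inhibitor of STAT5 signalling, went from 0.429 to 34.4 and 33.1 FPKM (4.60 ± 0.26). The replicates were close for Cish and lay over 2-fold apart for Socs1, both far above the control. The RNase gene Zc3h12a, which degrades cytokine transcripts, rose by 3.53, and Dusp1, a phosphatase of the kinases p38 and JNK, by 3.52. Dusp6, a phosphatase of ERK (chromosome 10, 99263231 to 99267488), did the opposite. It stood at 37.5 and 57.1 FPKM in the 2 h and 6 h controls and at 0.770 and 1.07 FPKM with LPS (-4.33 ± 0.24, limma adjusted p = 2.19e-06), the largest decrease by the naming rule. Spry2, another inhibitor of ERK signalling, was lower with a log2 fold change of -1.57, as were the pseudokinase gene Trib1 (-1.66) and Zfp36l1 (-1.36), whose product destabilises transcripts.

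Receptors and adaptors of the pathway changed in both directions. Of 27 tested members of 32 listed, 12 were called higher and 2 lower. Without replicate 1 the counts were 13 and 1, with the call of Tlr13 lost, and without replicate 2 they were 11 and 5. Cd14, the co-receptor that hands LPS to TLR4, rose from 338 to 1986 and 1446 FPKM (2.32 ± 0.21). Tlr2, the receptor of bacterial lipoproteins, rose from 64.7 to 680.4 and 657 FPKM (3.35 ± 0.18). The LPS receptor gene Tlr4 itself (chromosome 4, 66827571 to 66930284) fell, from 14.02 FPKM in the control to 3.20 and 5.43 FPKM (-1.53 ± 0.29, limma adjusted p = 0.00487). Both LPS libraries lay below both controls, the 6 h control being at 22.5 FPKM, and the call held without replicate 1 (limma adjusted p = 0.0169). Map3k8, the kinase Tpl2 upstream of ERK, went from 3.15 to 41.1 and 43.4 FPKM (3.38 ± 0.26). Ikbke, a kinase of interferon regulatory factors, went from 32.3 to 118 and 93.5 FPKM. The adaptors Myd88 and Ticam1, which encodes TRIF, rose by 1.33 and 1.25, while Tirap (-0.11), Irak4 (-0.58) and Traf6 (0.49) were not called. The calls of Ly96, which encodes MD-2 (0.66), and Tlr6 (0.57) were lost without replicate 1 and against the 6 h control.

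**Figure D4:**
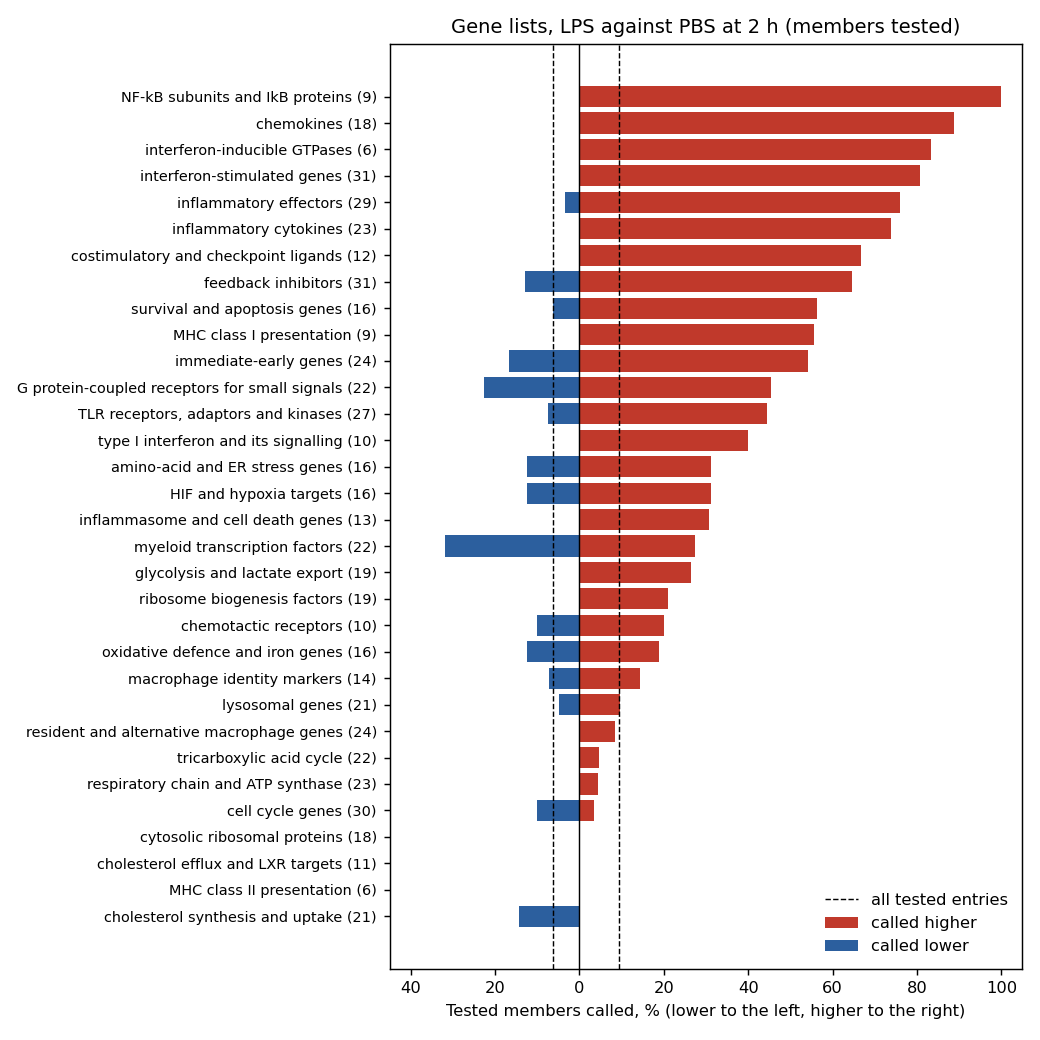
Share of the tested members of each gene list called higher (red, to the right) or lower (blue, to the left) with LPS at 2 h, in percent, with the number of members tested in brackets. Dashed lines mark the shares over all 11977 tested entries, 9.47% higher and 6.39% lower; the NF-kB and IkB list stands at 100%, and the ribosomal protein, cholesterol efflux and MHC class II lists at 0 in both directions.

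Most effector genes rose, 22 of 29 tested members being called higher and 1 lower (21 and 1 without replicate 1), with a median of 2.04. Clec4e, the receptor Mincle, stood at 24.3 FPKM in the control and at 414 and 411 FPKM with LPS (4.03 ± 0.13), an almost identical pair of replicates. Icam1, an adhesion molecule, rose from 47.5 to 720.02 and 687 FPKM (3.86 ± 0.18). Mmp13, a collagenase, went from 14.3 to 152 and 190.3 FPKM. The replicates of Saa3, an acute-phase protein, lay far apart at 434 and 124 FPKM from 18.3 in the control (3.60 ± 0.54). Genes of classical mediators were still low. Nos2, the inducible nitric oxide synthase, stood at 11.1 and 4.76 FPKM from 0.497 in the control (2.48 ± 0.36). Ptgs2, the inducible cyclooxygenase of prostaglandin synthesis, stood at 6.80 and 9.36 FPKM from 1.17 (2.05 ± 0.43, limma adjusted p = 0.00928). Thbs1, which encodes thrombospondin, was the lower member (-1.63), a call lost against the 6 h control (limma adjusted p = 0.710).

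Costimulatory and checkpoint genes, whose products speak to T cells, were uneven. Of 12 tested members 8 were higher and none lower, also without replicate 1 (median 2.60). Where none is said to be lower in the lists of cytokines, chemokines, interferon signalling, interferon-stimulated, costimulatory, inflammasome and glycolysis genes, limma also gave 0 lower at an unadjusted p under 0.05. Cd40 went from 5.36 to 299.97 and 239.6 FPKM (5.40 ± 0.18). Cd69 went from 0.957 to 53.7 and 38.5 FPKM (4.57 ± 0.26), and the ligand gene Icosl from 5.18 to 69.7 and 68.8 FPKM (3.51 ± 0.38). The checkpoint ligand gene Cd274 went from 3.95 to 39.2 and 37.9 FPKM (3.00 ± 0.19), and in none of these genes did the LPS libraries overlap the controls. Cd83 rose from 75.9 to 679 and 696 FPKM (3.16 ± 0.26), with controls that themselves differed, the 6 h control being at 12.2 FPKM. The classical costimulators Cd80 (0.18) and Cd86 (0.45) were not called.

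Antigen presentation genes differed by class. No MHC class II gene was called by limma, with 6 tested and a median of 0.32, beside 2 higher at an unadjusted p under 0.05, 2 against the 6 h control and 1 without replicate 2. Of 9 tested MHC class I presentation genes 5 were higher, 4 without replicate 1, where H2-Q6 was lost, and 9 without replicate 2. The other 7 of the 16 listed members stood in merged entries, none of which was called. These held Psmb8 with Tap1 (0.84), Psmb10 (0.80), Tapbp (0.61), H2-T22 with H2-T23 (0.53) and H2-D1 (0.37). The merged entry of the class II gene Cd74 was not called either (0.33). Psme2, a subunit of the proteasome activator, went from 108 to 396 and 225 FPKM (1.46 ± 0.29), with replicate 2 much nearer to the control than replicate 1. The H2-Q family is made of close copies that reads may not tell apart. The difference between the classes was not tested.

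Survival and apoptosis genes and sensors of the inflammasome responded as well. Traf1, an adaptor of TNF receptors, went from 2.47 to 130.4 and 85.7 FPKM (4.94 ± 0.26). Gadd45b, a stress gene that restrains JNK, went from 16.4 to 394 and 297 FPKM (4.30 ± 0.23). The death receptor gene Fas went from 2.64 to 26.6 and 19.3 FPKM (2.70 ± 0.24). Of 16 tested survival and apoptosis genes 9 were higher (56.25%, beside 9.47% of all tested entries), among them the anti-apoptotic Birc3 and Mcl1 (1.86 and 1.08). The 4 merged entries that hold Bcl2a1d, Bcl2l11, Bcl2a1b and Birc2 also rose, by 2.91, 2.40, 2.26 and 0.99. Gadd45a was lower (-1.57), a call lost against the 6 h control (limma adjusted p = 0.951). Nlrp3, an inflammasome sensor, rose from 16.4 to 100.3 and 135 FPKM (2.75 ± 0.26). Casp4, encoding caspase-11, which binds cytosolic LPS, rose from 20.2 to 93.8 and 71.1 FPKM (1.97 ± 0.18). Of 13 tested inflammasome and cell death genes 4 were higher and none lower, and the calls of Casp1 (0.83) and Gsdmd (0.78) were lost without replicate 1 (limma adjusted p = 0.0675 and 0.0809).

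Immediate-early genes, which are induced within minutes of a stimulus, showed both directions at 2 h, with 13 of 24 tested members higher and 4 lower. Junb, an AP-1 subunit, rose from 60.3 to 389 and 292 FPKM (2.46 ± 0.27). Jund rose from 13.7 to 57.8 and 31.8 FPKM (1.58 ± 0.27). Egr1, a zinc finger factor, rose from 3.46 to 9.84 and 14.5 FPKM (1.54 ± 0.23). Jun, another AP-1 subunit, fell, from 36.8 and 39.4 FPKM in the 2 h and 6 h controls to 12.2 and 9.50 FPKM (-1.69 ± 0.19, limma adjusted p = 2.24e-04). The other decreases did not hold in all settings: without replicate 1 the calls of Fos (-1.11), Nr4a1 (-1.02) and Nr4a2 (-0.77) were lost, leaving 12 higher and 1 lower, and those of Nr4a1 and Nr4a2 were also lost against the 6 h control. Nr4a3 rose by 2.20.

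Transcription factors of the myeloid lineage were lower in 7 and higher in 6 of 22 tested members, with a median of -0.16, and 7 and 7 without replicate 1. Cebpa, which drives the myeloid programme (chromosome 7, 35119293 to 35121926), fell from 76.1 FPKM in the control to 14.6 and 12.7 FPKM (-2.40 ± 0.19, limma adjusted p = 2.04e-05). The 6 h control was lower, at 29.2 FPKM, and the log2 fold change against it was -1.05. Its relatives Cebpb and Cebpd rose by 1.67 and 1.80, the latter a call lost against the 6 h control. Bcl6, a repressor of inflammatory genes, fell from 28.01 to 5.38 and 6.31 FPKM (-2.09 ± 0.16). For these decreases the replicates were close to each other and below both controls. Id1, an inhibitor of bHLH factors and a target of BMP signalling, fell from 64.1 to 9.87 and 6.95 FPKM (-2.81 ± 0.34), although the 6 h control stood at 23.999 FPKM (-1.43 against it). Etv3, a repressor of the ETS family, rose from 18.1 to 67.4 and 87.3 FPKM (2.02 ± 0.22), and Kdm6b, a histone demethylase, by 1.94.

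Beside Dusp6, the largest decreases by the naming rule were of regulators and of cell surface receptors. Hhex, a homeobox gene (chromosome 19, 37432887 to 37440728), fell from 25.4 FPKM in the control to 0.681 and 1.20 FPKM (-3.78 ± 0.31), with 17.7 FPKM in the 6 h control. Plk3, a stress-responsive kinase (chromosome 4, 117119217 to 117133963), fell from 34.1 to 1.62 and 1.86 FPKM (-3.68 ± 0.17). The controls of Plk3 differed far more than its replicates, with 5.98 FPKM at 6 h. Cxcr4, the receptor that retains cells in the marrow (chromosome 1, 128588199 to 128592342), fell from 139 to 12.9 and 21.2 FPKM (-2.99 ± 0.25), also with a lower 6 h control at 35.4 FPKM. Lyl1, a haematopoietic bHLH factor (chromosome 8, 84699876 to 84800344), fell from 61.5 to 7.68 and 5.90 FPKM (-3.01 ± 0.20). The cannabinoid receptor gene Cnr2 (chromosome 4, 135895394 to 135920207) fell from 9.46 to 0.251 and 0.232 FPKM (-3.07 ± 0.17), near 0 in both LPS libraries. Cd300lb, an activating receptor of myeloid cells (chromosome 11, 114922716 to 114934386), fell from 121 to 13.5 and 18.6 FPKM (-2.85 ± 0.25). Each of these calls held in each of 12 other settings. Against the 6 h control the log2 fold changes were nearer to 0 for Plk3 (-1.35), Cxcr4 (-1.05), Lyl1 (-1.99) and Cd300lb (-2.25).

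An entry named Rb1 and the entry of Lpar6, a receptor of lysophosphatidic acid, also stood among these decreases and are listed with the same locus (chromosome 14, 73123037 to 73325822). Lpar6 fell from 11.8 to 0.366 and 0.498 FPKM (-3.16 ± 0.32). The Rb1 entry was listed at 8.82 FPKM in the control and at 0 and 0.233 FPKM with LPS (-3.14 ± 0.36), while both other tested entries named Rb1 at this locus were not called (-0.56 ± 0.44 and 0.06 ± 0.26). The fall is therefore that of an entry, and these data do not show that the retinoblastoma gene as a whole fell.

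Receptors for small signals moved in both directions, with 10 of 22 tested members higher and 5 lower (9 and 4 without replicate 1). Gpr84, a receptor of medium-chain fatty acids, rose from 32.9 to 328 and 246 FPKM (3.07 ± 0.23). Gpr132 rose from 3.38 to 36.4 and 26.4 FPKM (2.87 ± 0.24), and the adenosine receptor gene Adora2a from 0.156 to 7.75 and 4.39 FPKM (2.57 ± 0.35). The prostaglandin receptor genes Ptger2 and Ptger4, whose products raise cyclic AMP, rose by 2.18 and 1.44. Lower were the sphingosine 1-phosphate receptor genes S1pr1 and S1pr2, with log2 fold changes of -1.40 and -1.01, and the acid sensor Gpr65 (-1.10).

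Some genes of glucose metabolism were called. Of 19 tested genes of glycolysis and lactate export, 5 were higher (26.3%, beside 9.47% of all tested entries) and none lower, and the median was 0.28. There were 5 higher without replicate 1, 9 without replicate 2, and 5 higher and 2 lower against the 6 h control. Hk2, a hexokinase, went from 8.38 to 48.6 and 35.9 FPKM (2.19 ± 0.18, limma adjusted p = 2.04e-05). Pfkfb3, which makes the activator of phosphofructokinase, went from 22.9 to 48.4 and 65.6 FPKM (1.26 ± 0.21). The glucose transporter gene Slc2a1 rose by 0.48, a call lost against the 6 h control (limma adjusted p = 0.0661). Ldha, lactate dehydrogenase, was not called, at 431 FPKM in the control and 552 and 425 FPKM with LPS. Hif1a, the oxygen-sensitive regulator of many of these genes, rose from 23.1 to 35.8 and 53.1 FPKM (0.89 ± 0.20). Its classical target Vegfa fell from 40.2 to 9.31 and 7.29 FPKM (-2.16 ± 0.23, or -1.48 against the 6 h control). Ndrg1, on the same list of HIF and hypoxia targets, rose from 9.09 to 45.4 and 36.5 FPKM (2.05 ± 0.20, or 2.43 against the 6 h control). The HIF list held 5 higher (31.3%) and 2 lower (12.5%) of 16 tested members, or 4 and 7 against the 6 h control, the other decrease being that of Txnip, a brake on glucose uptake, from 60.6 to 22.8 and 15.3 FPKM (-1.65 ± 0.26).

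Of 21 tested cholesterol synthesis and uptake genes 3 were lower (14.3%) and none higher, beside 6.39% and 9.47% of all tested entries. The count of lower genes was 3 without replicate 1, 5 without replicate 2 and 11 against the 6 h control. Of 11 tested genes of cholesterol efflux none was called by limma, beside 1 lower at an unadjusted p under 0.05, and 2 higher and 1 lower without replicate 2.

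Stress genes also moved in both directions. Of 16 tested oxidative defence and iron genes 3 were higher (18.75%) and 2 lower (12.5%), beside 9.47% and 6.39% of all tested entries. Sqstm1, the autophagy receptor p62, rose from 379 to 1512 and 1214 FPKM (1.84 ± 0.17). Txnrd1, thioredoxin reductase, rose from 91.03 to 167 and 203 FPKM. Gclc, an enzyme of glutathione synthesis, fell from 18.1 to 5.08 and 7.22 FPKM (-1.44 ± 0.19). Hmox1, haem oxygenase, fell too, from 296 to 193 and 167 FPKM (-0.71 ± 0.18). All 4 are known targets of the oxidative stress factor NRF2, picked from the called members. As 11 of the 16 were not called, they do not show how its targets moved as a set. The merged entry of Gclm with Gm6061 was called lower, from 56.3 to 28.9 and 30.6 FPKM (-0.90 ± 0.24), a call lost without replicate 1. That of Ftl1 with Bax and Gm22133 was not called (0.10). Ppp1r15a, a phosphatase subunit that ends the integrated stress response, went from 5.98 to 60.4 and 39.9 FPKM (2.84 ± 0.32). It belongs to a list of 16 tested amino-acid and ER stress genes with 5 higher and 2 lower (11 higher without replicate 2). The shares called in that list, 31.25% higher and 12.5% lower, stand beside 9.47% and 6.39% of all tested entries. Tfeb, which drives lysosomal genes, fell from 22.4 to 8.31 and 5.37 FPKM, and Mitf, of the same family, rose from 6.56 to 13.3 and 17.9 FPKM. Both calls were lost against the 6 h control, at 10.6 and 11.95 FPKM.

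Shares of resident macrophage and cell cycle genes called were not far from those of all tested entries, of which 9.47% were higher and 6.39% lower. Among 24 tested resident and alternative macrophage genes 2 were higher (8.33%), Igf1 (0.78) and Msr1 (0.78), and none lower by limma (2 at an unadjusted p under 0.05). The call of Msr1 was lost against the 6 h control, which stood at 175 FPKM beside 177 and 213 FPKM with LPS (0.15, limma adjusted p = 0.501). There were 4 higher and 3 lower against the 6 h control, 3 lower without replicate 2 and 1 lower without replicate 1. The mannose receptor gene Mrc1 stood at 215 FPKM in the control and at 205 and 267 FPKM with LPS (limma adjusted p = 0.727). Csf1r, the receptor of CSF-1, stood at 330.2 FPKM in the control and at 267 and 289 FPKM with LPS (limma adjusted p = 0.274). Of 30 tested cell cycle genes 1 was higher (3.33%), the cyclin gene Ccnd2 (0.70), and 3 were lower (10.0%), or 2 higher and 7 lower against the 6 h control. The cyclin gene Ccnd1 fell from 133 to 42.3 and 62.6 FPKM (-1.35 ± 0.29), while Ccne2 (-1.16) lost its call without replicate 1 and E2f2 (-0.90) without replicate 2.

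For ribosomal protein and respiratory chain genes, whose transcripts are short, the calls differed between the replicates. None of 18 tested ribosomal protein genes was called by limma (9 were higher at an unadjusted p under 0.05), although the list had a median of 0.51, being 0.83 in replicate 1 and 0.19 in replicate 2. With replicate 1 as the only LPS library 18 of 18 were called higher, and with replicate 2 as the only LPS library none was. Likewise 1 of 23 respiratory chain and ATP synthase genes was called higher (median 0.41), 18 with replicate 1 alone and none with replicate 2 alone. Ribosome biogenesis factors gave 4 higher of 19 (median 0.39), 8 with replicate 1 alone and 2 with replicate 2 alone. Rrs1, an assembly factor of the large subunit, was among the latter, at 12.6 FPKM in the control and 44.3 and 38.9 FPKM with LPS. Among protein-coding genes, all 548 increases and all 293 decreases of at least 2-fold were also called, in the same direction, after the levels in each library were adjusted for a trend with transcript length.

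Genes that rose were shorter than those that fell, as a description with no test. The median gene span was 18.7 kb for the 548 protein-coding genes that rose by at least 2-fold, 26.7 kb for the 293 that fell and 24.3 kb over all 10018 tested protein-coding entries. The median of the largest exon number among a gene's annotated transcripts was 7, 8 and 9, and genes with a single exon made up 3.65%, 3.41% and 1.79%. The longest transcript had a median of 3200.5, 3986 and 3372 bases. PBS-then-LPS replicate 1 stood apart by transcript length, and how far this shaped these differences was not tested.

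The response at 2 h was set against that at 6 h by a test of the difference between the effects, each time against its own control, so that the effects share no library. The effect was higher at 2 h than at 6 h for 1402 entries (11.7%) and lower for 1660 (13.9%). Of the 653 genes that rose by at least 2-fold at 2 h, 157 had a larger effect at 2 h, 176 a larger effect at 6 h and 320 no called difference. Of the 338 that fell by at least 2-fold, 124 had a lower effect at 2 h, 24 a higher one and 190 no called difference.

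Genes with a brief response stood far above control at 2 h and much closer to it at 6 h. Tnfsf9 had 499 and 433 FPKM at 2 h and 13.6 and 15.8 FPKM at 6 h, where its control held 10.7 FPKM, a difference of effects of 6.28 ± 1.44 (limma adjusted p = 0.00996). Cxcl1 had 33.8 and 35.7 FPKM at 2 h and 1.12 and 0.712 FPKM at 6 h (4.09 ± 0.58). Rnd1 had 91.1 and 53.7 FPKM at 2 h and 5.50 and 4.03 FPKM at 6 h (3.78 ± 0.45). Another small GTPase gene, Rhof, behaved alike, with 46.1 and 40.5 FPKM and then 1.03 and 1.22 FPKM (3.72 ± 0.45). Frmd6, a FERM domain gene, had 33.3 and 59.7 FPKM at 2 h and 1.37 and 1.02 FPKM at 6 h, above its control at the earlier time (7.54 FPKM) and below it at the later time (4.83 FPKM), with a difference of 3.83 ± 0.40. Ifnb1 stood at 4.47 and 8.17 FPKM at 6 h, well under its levels at 2 h (2.56 ± 0.63, limma adjusted p = 0.0141), and Cish at 1.96 and 2.73 FPKM (3.28 ± 0.37). Some decreases were not seen at 6 h. Tlr4 then stood at 26.1 and 20.1 FPKM beside 22.5 FPKM in its control (-1.56 ± 0.41), and Bcl6 at 32.97 and 37.4 FPKM beside 18.5 FPKM (-2.98 ± 0.23).

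Genes with a late response were near control, or had risen only in part, at 2 h. Ms4a4c, of the MS4A membrane protein family, had 6.38 and 3.98 FPKM with LPS at 2 h beside 5.82 FPKM in the control. At 6 h it had 702 and 990.1 FPKM beside 2.25 FPKM, a difference of effects of -8.17 ± 0.36 (limma adjusted p = 8.39e-07). Saa3 went from 434 and 124 FPKM at 2 h to 8837 and 7185 FPKM at 6 h (-6.42 ± 0.77), the highest levels among these genes. Ifi44 went from 1.78 and 1.91 to 159 and 185 FPKM (-6.26 ± 0.19). Slco3a1, an organic anion transporter, went from 0.792 and 0.840 to 104 and 126 FPKM (-6.24 ± 0.21). Pydc3, a PYRIN domain gene, went from 1.42 and 0.789 to 100.3 and 122 FPKM (-6.00 ± 0.27). Ms4a4c, Ifi44, Slco3a1 and Pydc3 were not called at 2 h. Nos2 stood at 11.1 and 4.76 FPKM at 2 h and at 213 and 279 FPKM at 6 h (-5.43 ± 0.51).

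Gene lists differed in their timing. Of 31 tested interferon-stimulated genes 30 had a lower effect at 2 h than at 6 h and none a higher one, with median effects of 1.43 and 5.30. Lower effects at 2 h were also called for 5 of 6 interferon-inducible GTPases and 19 of 29 effectors, with 3 effectors higher at 2 h. None of the 9 NF-kB and IkB genes was called different between the times by limma (1 each way at an unadjusted p under 0.05), with medians of 2.51 and 2.26. Ribosome biogenesis factors went the other way, 17 of 19 having a higher effect at 2 h, with medians of 0.39 and -1.27. The same direction was called for 14 of 21 cholesterol synthesis genes (medians -0.35 and -1.90) and 16 of 30 cell cycle genes (medians 0.020 and -1.11), while 3 cell cycle genes had a lower effect at 2 h.

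**Figure D5:**
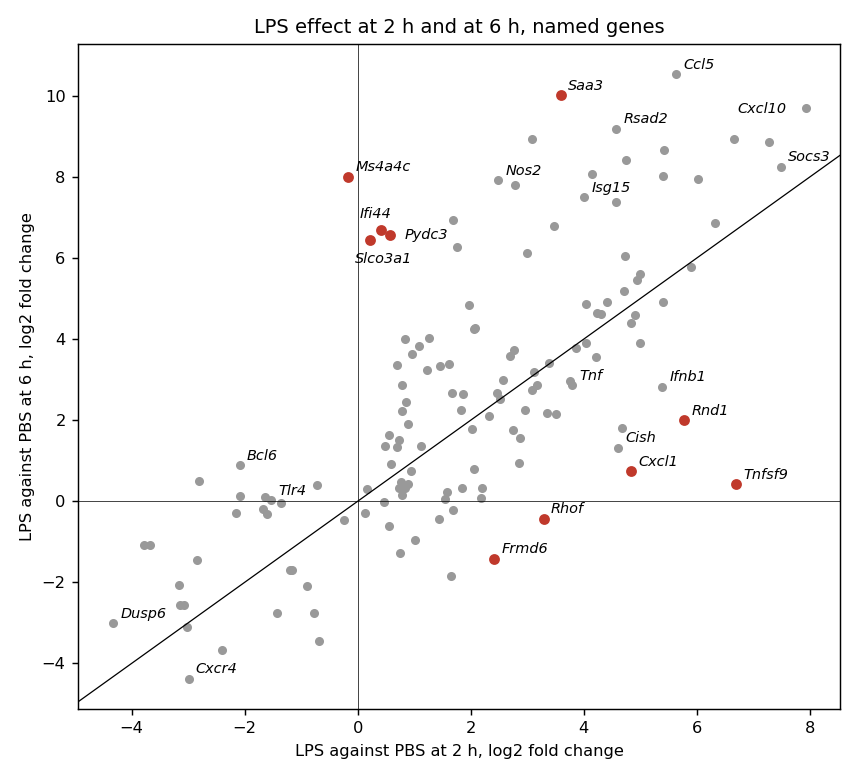
Log2 fold change with LPS at 2 h (x axis) and at 6 h (y axis) of the 141 named genes, each time against its own PBS-then-PBS library. Red points are the 5 largest differences each way by the naming rule, the diagonal marks equal effects, and genes below it, such as Tnfsf9, had the higher effect at 2 h while those above it, such as Saa3, had the higher effect at 6 h.

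Motifs in the promoters differed between these classes as a description. Of the 102 promoters found for genes that rose by at least 2-fold with a larger effect at 2 h, 10.8% held a kappaB match and 1.96% an ISRE match, and of the 122 found for those with a larger effect at 6 h, 14.8% and 18.9%. In the sequences printed above, Cxcl1 with its kappaB matches belongs to the former class, Isg15 and Ifit1 with ISRE matches to the latter (-3.49 ± 0.40 and -1.93 ± 0.28), and Cxcl10, which holds both, had a larger effect at 6 h (-1.78 ± 0.35). The effects on Nfkbia at the times were not called different (0.66 ± 0.73, limma adjusted p = 0.566). These sequences were chosen for their motifs and timing and do not stand for their classes. Among the 5 largest differences each way, Rhof and Frmd6 (larger at 2 h) and Ms4a4c and Ifi44 (larger at 6 h) held no match. Saa3 and Pydc3, larger at 6 h, held an ISRE match, and Tnfsf9, Rnd1 and Slco3a1 had no promoter found. Casp4, larger at 6 h (-2.88 ± 0.25), held kappaB matches and no ISRE match.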

How the data were processed

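The values are FPKM per entry as the authors deposited them in a normalized table. Per the submitters' processing notes, TopHat2, Cufflinks and Cuffnorm were used with the genome build mm9, with no versions given. Per the labels' protocols, libraries were stranded mRNA libraries sequenced as pairs of 76-base reads. Whether counting used strand is not given in the sources used here, so a gene and an antisense or overlapping neighbour may not be told apart. The table's coordinates overlap the gene they name on GRCm38 for 33796 of the 33853 entries that name 1 GENCODE M21 gene (13336 with the same start and end), so they are given as GRCm38. FPKM keep no depth, so no counting error can be given. Of 39721 entries, 1859 name no gene (6.33% to 17.7% of FPKM in a library) and stayed out of the tests.

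The test was run on entries that reached 1 FPKM in 2 or more libraries (11977, of which 832 name several genes). log2(FPKM + 1) was fitted in limma 3.58.1 (R 4.3.3) with 1 mean for each of 8 groups over all 14 libraries and an intensity trend, so that 6 residual degrees of freedom estimate the spread. P-values were 2-sided, adjusted by Benjamini-Hochberg over all tested entries, and called under 0.05. The control at 2 h is 1 library, assumed to vary like the other groups, and controls of both times each being 1 library, their own spread cannot be estimated. The script was tested on simulated data. Tables and figures were made in Python 3.11.15. Gene lists, the choice of this comparison and its tests were made with earlier results of these data known. The genes named were, among called entries that name 1 protein-coding gene, with at least 5 FPKM in the higher group and both LPS libraries on 1 side of both controls, the 10 largest changes each way, up to 5 members of each list, the 5 largest differences each way between the times, and a set of known LPS genes. Other list members were named after their values were seen. Alternatives were another pseudocount (0.1), no filter on low values, median-of-ratios scaling, no trend, the 2 h libraries alone, other controls, a replicate term, each replicate left out and, added after seeing the data, protein-coding entries alone and an adjustment for transcript length. Same-numbered replicates did not deviate together (correlations from -0.190 to 0.0779 over 15 pairs of groups), so the numbers were not taken as pairs. Promoters were matched by gene symbol to a RefSeq table of GRCm38.p6, which held 7855 of the 10018 tested protein-coding genes. A few genes of the lists are not reported here.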

Additional observations from a re-analysis of the deposited data

Results flagged for a closer look

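For 10 genes the effect of LPS differed between 2 h and 6 h by a test of the difference itself, and these were the largest differences each way by the naming rule. The values are the log2 fold change at 2 h minus that at 6 h with its standard error, each time against its own control library. Higher at 2 h were Tnfsf9 (6.28 ± 1.44, limma adjusted p = 0.00996), Cxcl1 (4.09 ± 0.58, 6.54e-04), Frmd6 (3.83 ± 0.40, 1.18e-04), Rnd1 (3.78 ± 0.45, 2.37e-04) and Rhof (3.72 ± 0.45, 2.65e-04). Lower at 2 h were Ms4a4c (-8.17 ± 0.36, limma adjusted p = 8.39e-07), Saa3 (-6.42 ± 0.77, 2.45e-04), Ifi44 (-6.26 ± 0.19, 1.52e-07), Slco3a1 (-6.24 ± 0.21, 2.53e-07) and Pydc3 (-6.00 ± 0.27, 9.08e-07). In all 10 genes the LPS libraries of the different times did not overlap. The genes were chosen for this difference, so that is a description and adds no support. No group here holds 4 or more libraries, so single libraries were not tested for standing apart.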

How the results depend on the processing

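The 2 h control is 1 library, PBS-then-LPS replicate 1 differs from replicate 2 with transcript length, and depth is unknown, so these limit every value. Calls fell to 747 higher and 429 lower with the 2 h libraries alone, which leaves fewer samples to estimate the spread. They went to 1720 and 1153 with the PBS-then-PBS libraries of both times pooled as controls, 1637 and 1122 with the 6 h library as the control, and 1157 and 659 with a pseudocount of 0.1. Without a filter they were 1029 and 877, with median-of-ratios scaling 1107 and 810, without a trend 1068 and 789, and over protein-coding entries alone 1072 and 751, which became 1027 and 1016 after the adjustment for transcript length. Leaving out PBS-then-LPS replicate 1 or 2 gave 1132 to 2296 higher and 661 to 1407 lower calls, the highest without replicate 2; the cause was not tested. For the difference between the times, both controls as 1 group, shared by the effects, gave 2991 higher and 2740 lower, against 993 to 2096 and 1300 to 2109 when 1 of the 4 LPS libraries was left out.

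With a replicate block there were 1009 higher and 644 lower calls, and 1227 and 1515 for the difference between the times, or 1328 and 1624 with crossed numbers, since replicates of the same number at 2 h and 6 h deviated in opposite directions (-0.190).

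Of 141 named genes 134 were called. None of these reversed in any of 12 settings, 24 lost the call in at least 1 (19 of them with the 2 h libraries alone), and 5 of the 7 others gained it in at least 1, among them Mrc1 (0.68, limma adjusted p = 0.0267) and, with its sign turned, Ms4a4c (0.90, 0.0293), both against the 6 h control. The 7 changes of sign were all in genes not called: Ldha (0.17) had -0.16 against the 6 h control, -0.018 without replicate 1 and -0.028 after the length adjustment, Mrc1 (0.12) had -0.069 without replicate 2, beside 0.31 without replicate 1, and Ms4a4c (-0.17) had 0.36 with both controls, 0.90 against the 6 h control and 0.11 without replicate 2, beside -0.45 without replicate 1.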

Other observations

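Entries outside the lists and outside the protein-coding genes held large changes, and these were chosen after their values were seen. The entry that holds Mir155, a microRNA known from macrophage activation, went from 0.181 FPKM in the control to 27.9 and 33.9 FPKM with LPS (log2 fold change 4.75 ± 0.22, limma adjusted p = 1.02e-06). The entry that holds Mir221 and Mir222 went from 4.01 to 26.2 and 22.2 FPKM (2.32 ± 0.49). The entry that holds Mir223, a microRNA of myeloid cells, moved the other way, from 16.9 to 0.982 and 2.01 FPKM (-2.88 ± 0.36). All 3 are values of host transcripts in an mRNA library and not of the mature microRNAs.

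The lincRNA gene Gm26809 stood at 11.8 FPKM in the control and at 402 and 583 FPKM with LPS (5.24 ± 0.21), among the largest increases of any entry. AW112010 went from 8.97 to 206 and 109 FPKM at 2 h (3.92 ± 0.32) and stood at 1597 and 2157 FPKM with LPS at 6 h. Of 145 tested entries that name a lincRNA gene 9 were called higher and 2 lower by at least 2-fold in limma, and of 254 that name an antisense gene 17 and 3, beside 653 and 338 of all 11977 tested entries. Strand use in the counting is not known, so antisense entries may hold reads of the opposite gene.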
